A study of Rattus norvegicus with 4 samples.

Results

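Neurotrophins and their receptors were followed in rat hippocampal cultures through 5 genes: the ligands Bdnf and Ntf3 and the receptors Ntrk2, Ntrk3 and Ngfr. They were taken by gene symbol from both input expression tables, where each had 1 of the 22714 rows, and from both lists of m6A peaks. Among the 8183 peaks of the BPA list none lay in these genes, and among the 8192 peaks of the Ctrl list 1 did, in Ntf3. RNA came from primary hippocampal neurons grown with the mitotic inhibitor Ara-C, and was sequenced as input and after immunoprecipitation (IP) with an antibody against m6A, the most common internal methylation of mRNA. Exposed cultures (BPA_Input and BPA_IP) received bisphenol A (BPA), a monomer of polycarbonate plastics that can bind oestrogen receptors, at 1 mM for 48 h. Exposure began on day 12 in vitro. The treatment protocol and the IP label give day 14 as its end, while the input label gives day 13, which conflicts with 48 h. Control cultures (Ctrl_Input and Ctrl_IP) received no treatment. Each group was 1 library, so no value below has a replicate, no test of the exposure could be made, and every interval covers read counting only.

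Neurotrophins are secreted growth factors that are made as proneurotrophins and cleaved to the mature form. Mature BDNF, the product of Bdnf, binds TrkB (Ntrk2), and NT-3, the product of Ntf3, binds TrkC (Ntrk3). Both Trk receptors are tyrosine kinases that feed the Ras and MAP kinase, PI3 kinase and phospholipase C gamma branches. p75NTR (Ngfr) binds all neurotrophins and, together with sortilin, their uncleaved precursors. In the hippocampus BDNF and TrkB are known for their part in synaptic plasticity, and Bdnf is transcribed from several promoters, some of which respond to neuronal activity. Ntrk2 is also transcribed in astrocytes, mainly as a truncated form without the kinase.

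The deposited gene counts pool all transcripts of a gene, so sequences before some annotated starts of the ligands are shown as examples of what is pooled. The RefSeq table (build GRCr8, which is not given as the build of the deposited files) held 6 starts for Bdnf and 3 for Ntf3; Ntrk2, Ntrk3 and Ngfr were not in it. The 4 shown are the first Bdnf start by position, the Bdnf start with a motif match, and the 2 Ntf3 starts that remain when 1 that lies 1 base from another is left out. Each sequence is the 250 bases before a start, 5′ to 3′ on the strand of the gene. Capitals mark any match to TGACGTCA, the cAMP response element, to its variant TCACGTCA, to the core CGTCA that both contain, or to the E-box CACGTG, searched on both strands.
Bdnf, chr3:116619383-116619632, + strand: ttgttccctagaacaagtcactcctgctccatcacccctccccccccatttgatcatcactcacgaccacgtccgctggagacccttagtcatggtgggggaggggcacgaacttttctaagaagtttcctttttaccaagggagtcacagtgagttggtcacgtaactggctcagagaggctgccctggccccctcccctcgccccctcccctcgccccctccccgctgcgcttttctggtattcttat
Bdnf, chr3:116637608-116637857, + strand: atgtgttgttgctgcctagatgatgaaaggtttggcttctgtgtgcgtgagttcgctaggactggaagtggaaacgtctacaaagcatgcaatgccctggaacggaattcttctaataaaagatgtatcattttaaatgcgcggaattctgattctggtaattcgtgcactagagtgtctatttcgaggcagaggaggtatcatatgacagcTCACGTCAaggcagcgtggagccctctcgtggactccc
Ntf3, chr4:160668908-160669157, - strand: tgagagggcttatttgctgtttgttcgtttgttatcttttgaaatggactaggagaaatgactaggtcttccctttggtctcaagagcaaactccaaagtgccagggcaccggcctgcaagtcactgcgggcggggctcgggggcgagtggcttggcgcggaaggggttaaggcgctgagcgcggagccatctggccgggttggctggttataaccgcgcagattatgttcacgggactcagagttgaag
Ntf3, chr4:160670623-160670872, - strand: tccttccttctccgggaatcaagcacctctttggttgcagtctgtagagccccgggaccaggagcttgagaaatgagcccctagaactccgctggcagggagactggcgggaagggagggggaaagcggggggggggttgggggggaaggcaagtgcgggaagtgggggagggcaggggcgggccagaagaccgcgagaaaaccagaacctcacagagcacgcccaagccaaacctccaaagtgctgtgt
Of the 6 Bdnf starts, 1 had a match, to TCACGTCA and the core CGTCA within it, and none of the 3 Ntf3 starts had any. Over all 33469 starts in the table, TCACGTCA occurred before 0.350%, TGACGTCA before 1.59%, CACGTG before 5.59% and CGTCA before 18.2%. The deposited values do not separate these starts, so Bdnf below means the sum over all of them.

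The input tables summed to 9774929 deposited counts in the BPA library and 9837064 in the Ctrl library. Of all genes, 13006 averaged at least 10 counts over the inputs, the minimum used below, and their median log2 ratio was 0.0019. Neuronal markers were all present: Map2, Tubb3, Rbfox3, Syn1, Snap25, Slc17a7, Gad1 and Gad2 summed to 1176 FPKM in the BPA library and 1102 FPKM in the Ctrl library. Astrocyte markers (Gfap, Aqp4, Slc1a3, Slc1a2, Aldh1l1, Gja1, S100b and Sox9) were also all present and summed higher than the neuronal ones, to 6660 FPKM in the BPA library and 7223 FPKM in the Ctrl library. In the BPA library, summed markers of the oligodendrocyte lineage were at 174 FPKM, of fibroblasts at 127, of microglia at 83.8 and of endothelial and mural cells at 7.04. In the Ctrl library these sums were 168, 111, 83.6 and 7.47 FPKM. Among these, Cldn5 was at 0 in both libraries, Rgs5 at 0 in the BPA library and Mog at 0 in the Ctrl library.

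The Trk receptors stood highest at the transcript level, and p75NTR lowest. On the FPKM scale, which corrects for length, Ntrk2 had 185 in the BPA library and 206 in the Ctrl library, which placed it in the top 1.65% of listed genes in the BPA library and the top 1.40% in the Ctrl library. Ntrk3 had 65.8 FPKM in the BPA library and 61.9 FPKM in the Ctrl library, in the top 5.99% in the BPA library and the top 6.47% in the Ctrl library. Bdnf followed, with 22.7 FPKM in the BPA library and 24.4 FPKM in the Ctrl library. Below these, Ntf3 had 4.02 FPKM (95% counting interval 2.999 to 5.27) in the BPA library and 2.75 FPKM (1.93 to 3.81) in the Ctrl library. Ngfr was the lowest, with 1.45 FPKM (1.07 to 1.92) in the BPA library and 1.43 FPKM (1.05 to 1.895) in the Ctrl library. The order Ntrk2, Ntrk3, Bdnf, Ntf3, Ngfr was the same in both libraries, and no neighbours had overlapping counting intervals, although Ntf3 and Ngfr came close to each other in the Ctrl library.

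**Figure D1:**
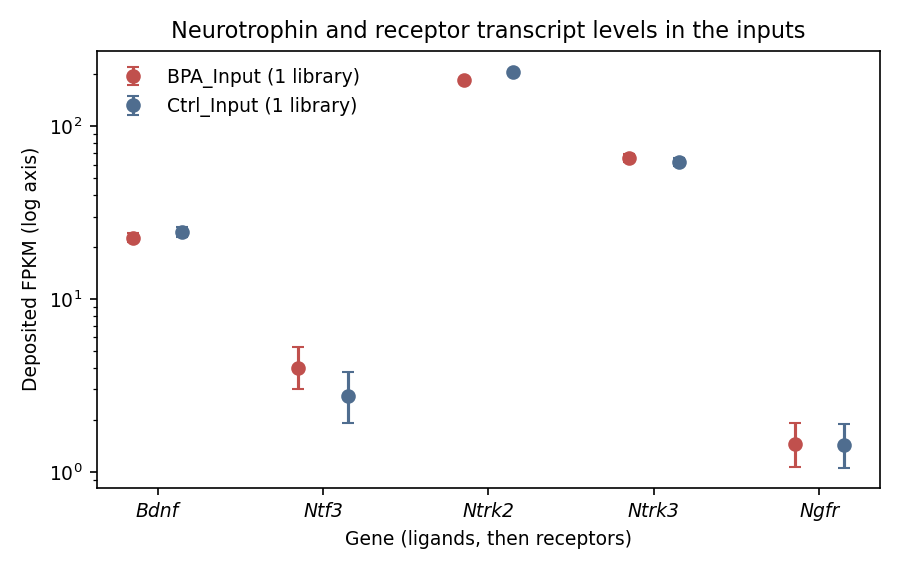
Deposited FPKM (log axis) of the ligands and receptors in BPA_Input and Ctrl_Input, 1 library each; bars are 95% counting intervals. Ntrk2, at 185 FPKM in BPA_Input and 206 FPKM in Ctrl_Input, lies far above Ngfr, at 1.45 FPKM in BPA_Input and 1.43 FPKM in Ctrl_Input, and on this axis the libraries lie furthest apart for Ntf3, at 4.02 FPKM in BPA_Input and 2.75 FPKM in Ctrl_Input.

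The first comparison asked whether these transcripts differed in level after exposure. None of the 5 genes reached 2-fold in either direction (log2 ratios of 1 or -1), against 2.02% of the 13006 genes, 1.04% higher and 0.984% lower in the BPA library. By sign alone Ntf3, Ntrk3 and Ngfr were higher and Bdnf and Ntrk2 lower in the BPA library, and the Ngfr ratio was 1 with unscaled reads. The counting interval of the ratio left out 1 for Ntrk2 alone, 1 of 5 genes, against 18.3% of the 13006 genes. The shares of 2.02% and 18.3% pool genes of all depths from 10 counts upward. Of the 10943 genes averaging at least 50 counts, as Bdnf, Ntrk2 and Ntrk3 do, 52 reached 2-fold. Intervals of the kind used here leave out the true ratio for some genes by counting error alone.

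Among the ligands, Bdnf, on chromosome 3 (107390647 to 107421863 in the coordinates of the files, + strand), had 951 deposited counts in the BPA library and 1022 in the Ctrl library. It was 0.931-fold in the BPA library (95% counting interval 0.850 to 1.02, log2 ratio -0.10), so the 2 libraries were not distinguishable by counting error. Of the 2042 genes with a mean count within 1.5-fold of that of Bdnf, 33.2% had a log2 ratio at least as large in size. Ntf3 (chromosome 4, 225638801 to 225707718, - strand) had 53.2 counts in the BPA library and 36.3 in the Ctrl library, which correspond to 52 and 36 reads. With so few reads the ratio of 1.46 had an interval of 0.938 to 2.30 (log2 ratio 0.54), the widest of the set and including 1. This was the largest ratio of the 5 genes, and 17.6% of the 1338 genes of like depth had one as large in size. Their central 90% ran from -0.66 to 0.71 on the log2 scale, which holds the value of Ntf3.

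Among the receptors, Ntrk2 (chromosome 17, 8156431 to 8464507, - strand) had 9367 counts in the BPA library and 10446 in the Ctrl library. It was 0.897-fold in the BPA library (interval 0.872 to 0.922, log2 ratio -0.16), 10.3% lower, and at this depth counting error was small. Of the 97 genes of like depth, 5 (5.15%) had a log2 ratio at least as large in size, and their central 90% ran from -0.14 to 0.10, which does not hold the value of Ntrk2. Ntrk2 thus stood at the edge of what abundant transcripts showed between these libraries. Beside it, the astrocyte markers had a median log2 ratio of -0.10, with 7 of 8 lower in the BPA library. The lowest were Gja1, the gap junction protein connexin 43, at -0.17, S100b at -0.17 and the glial transcription factor Sox9 at -0.18. Slc1a3 was at -0.12, Slc1a2 at -0.09, Aqp4 at -0.08 and Gfap at -0.05, while Aldh1l1 was at 0.12. Of the neuronal markers 4 were higher and 4 lower, with a median of 0.05. The part of the astrocyte share in the Ntrk2 value was not tested, and in such bulk RNA fewer cells of a type and less RNA per cell cannot be told apart.

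Ntrk3 (chromosome 1, 140868285 to 141239954, - strand) went the other way, with 1533 counts in the BPA library and 1441 in the Ctrl library. The ratio of 1.06 had a counting interval of 0.989 to 1.15 (log2 ratio 0.09), and 33.3% of the 1522 genes of like depth had one as large in size. Ngfr (chromosome 10, 83198414 to 83216629, - strand) had 49.1 counts in the BPA library and 48.5 in the Ctrl library, which is 48 reads in each. Its ratio of 1.01 had an interval of 0.664 to 1.54, so a difference of up to about that size was not detectable at this depth. No other row of the tables overlapped the locus of any of the 5 genes.

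**Figure D2:**
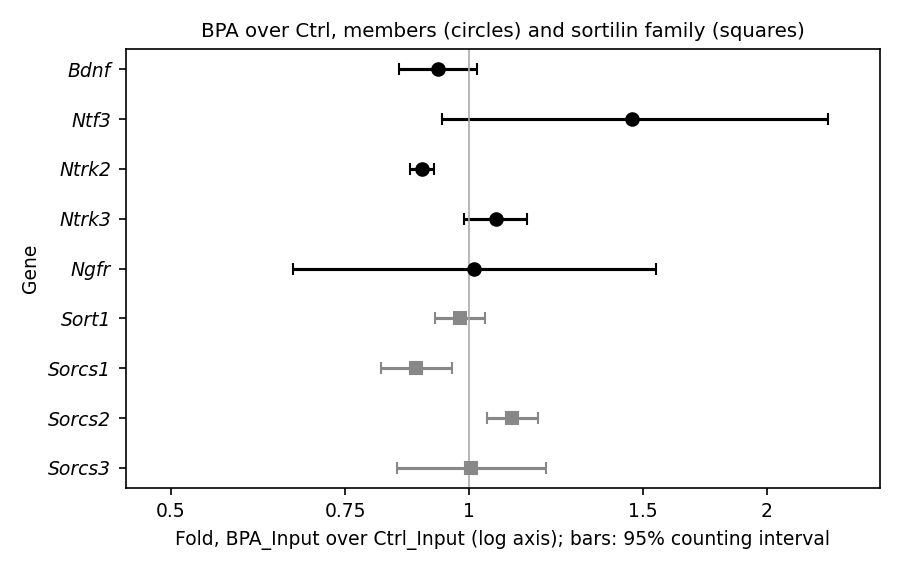
Fold of BPA_Input over Ctrl_Input (log axis) for the 5 genes (circles) and the sorting receptors of the sortilin family (squares); bars are 95% counting intervals from 1 library per group. Ntrk2 at 0.897 and Sorcs1 at 0.885 lie below 1 with their whole interval and Sorcs2 at 1.11 above it; the intervals of the rest include 1.

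**Figure D3:**
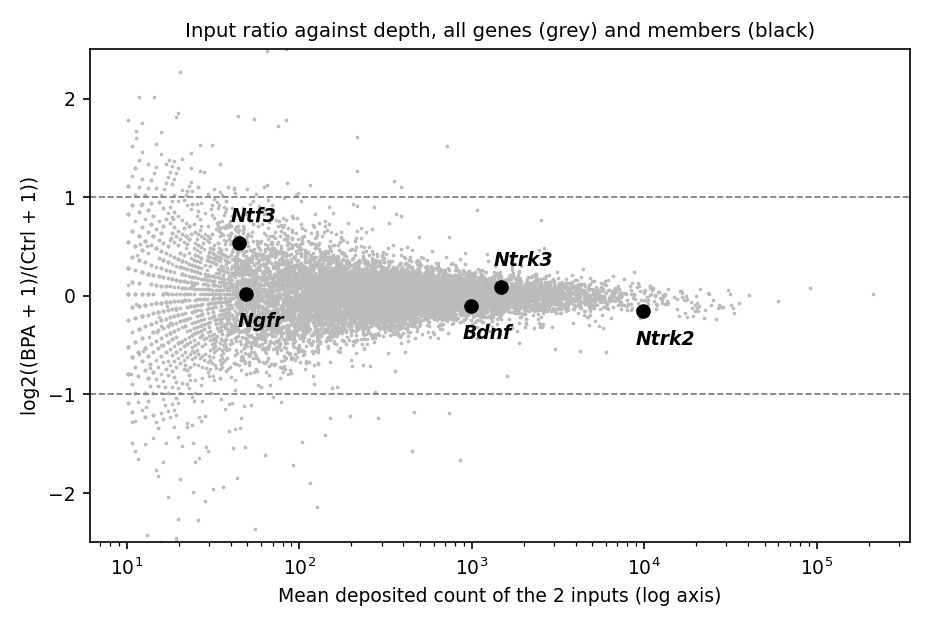
log2 ratio of BPA over Ctrl input counts against the mean count (log axis) for the 13006 genes that passed the count minimum (grey; 58 lie outside the plotted range), with the 5 genes in black and dashed lines at 2-fold. Ntf3 and Ngfr lie where the cloud is wide, Bdnf and Ntrk3 inside its narrow part, and Ntrk2 at its lower edge.

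Ratios of 2 genes within a library do not depend on how the libraries are scaled. Over the 10 pairs of the 5 genes, the counting interval of the change in ratio left out 1 for 3. Ntrk2 per Ntrk3, the balance of the BDNF and NT-3 receptors, was 2.81 in the BPA library and 3.33 in the Ctrl library on the FPKM scale, and the ratio of reads was 0.842-fold in the BPA library (95% interval 0.779 to 0.911). Bdnf per Ntrk3 was 0.345 in the BPA library and 0.394 in the Ctrl library (0.874-fold by reads, 0.778 to 0.982). Ntf3 per Ntrk2 was 0.0217 in the BPA library and 0.0133 in the Ctrl library (1.63-fold, 1.05 to 2.57). For the ligands, Bdnf per Ntf3 was 5.66 in the BPA library and 8.88 in the Ctrl library, with an interval that reached 1 (0.636-fold, 0.400 to 1.002). These intervals are not adjusted for the number of pairs and share genes, so they describe the same differences as the single ratios. The number of counts behind 1 FPKM, which follows the transcript length that the authors' quantifier used, was 50.7 for Ntrk2 in both libraries, and differed between the libraries by at most 0.206% (Ntrk3) among the 5 genes. Over 10943 genes averaging 50 counts or more, it differed by over 1% for 5.11%.

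Ntf4, a further ligand of TrkB, was scarce, with 5.11 counts in the BPA library and 6.06 in the Ctrl library. It was under the minimum of 10 counts, where no difference could be read. The sorting receptors of the sortilin family were well measured. Sort1, sortilin itself, had 2314 counts in the BPA library and 2365 in the Ctrl library (0.979-fold, 0.923 to 1.04). Sorcs1 had 1089 counts in the BPA library and 1231 in the Ctrl library (0.885-fold, 0.814 to 0.961). Sorcs2, which acts with p75NTR as a proneurotrophin receptor, had 2374 counts in the BPA library and 2146 in the Ctrl library (1.11-fold, 1.04 to 1.17), and Sorcs3 was at 1.01-fold (0.845 to 1.20).

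The wider pathway was taken as a list of 92 genes, of which 88 matched and 80 passed the minimum of 10 counts. None of these 80 reached 2-fold, against 2.02% of the 13006 genes. That share pools all depths, and only 52 of the 10943 genes averaging at least 50 counts reached 2-fold. Most of the 80 are at that depth (32 higher and 43 lower). By sign, 33 of the 80 were higher and 47 lower in the BPA library, against 50.4% higher and 49.6% lower of the 13006. The list's median log2 ratio was -0.02, beside 0.0019 for all genes tested. Counting intervals lay above 1 for 7 and below 1 for 12 of the 80, against 9.19% and 9.13% of the 13006. These shares also pool all depths, and intervals narrow as counts rise. They were not taken at the depth of the list, so no excess is read from them.

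Genes named by role below were picked for the largest log2 ratios in size, and their intervals are not adjusted for that choice. Genes of proneurotrophin processing had a median of -0.11, with 4 of 11 higher and 7 lower. Plat, tissue plasminogen activator, which makes the plasmin that cleaves proBDNF, had 2610 counts in the BPA library and 3251 in the Ctrl library (0.803-fold, interval 0.762 to 0.846). The proprotein convertase Pcsk6 was at 0.820-fold (0.689 to 0.974). Receptor adaptors and partners had a median of 0.0009, with 12 higher and 12 lower (10 and 14 with TMM scaling, 8 and 16 with unscaled reads). Grb2, which couples activated receptors to Ras, had 1018 counts in the BPA library and 813 in the Ctrl library (1.25-fold, 1.14 to 1.38). Rtn4r, the Nogo receptor and a partner of p75NTR, was at 1.27-fold (0.989 to 1.62), and the docking protein Gab2 at 1.18-fold (0.919 to 1.51). In the kinase and lipid branches 9 genes were higher and 12 lower (11 and 10 with equal library totals), with a median of -0.0038. Camk4, a kinase that phosphorylates CREB, had 385 counts in the BPA library and 301 in the Ctrl library (1.28-fold, 1.098 to 1.496). Map2k1, the kinase MEK1, was at 1.16-fold (1.06 to 1.28), and Irs1, a docking protein for PI3 kinase, at 0.819-fold (0.739 to 0.908).

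Of the 11 regulators of Bdnf transcription, 2 were higher and 9 lower in the BPA library, with a median of -0.06. Creb1, the factor that binds cAMP response elements such as the letters marked above, had 709 counts in the BPA library and 857 in the Ctrl library (0.828-fold, 0.748 to 0.916). The repressor Rest was at 0.874-fold by counts (0.744 to 1.03). Its FPKM differed more, with 11.1 in the BPA library and 14.6 in the Ctrl library. Of transcripts known to respond to BDNF and TrkB signalling, 4 of 9 were higher and 5 lower (6 and 3 with equal library totals, 3 and 6 with unscaled reads), with a median of -0.0077. Fos had the largest ratio in size, with 155 counts in the BPA library and 245 in the Ctrl library (0.633-fold, 0.514 to 0.779). Egr1, like Fos an immediate-early gene, was at 0.855-fold (0.779 to 0.938), and Spry4, an inhibitor of Ras and MAP kinase signalling, at 1.15-fold (1.02 to 1.29).

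**Figure D4:**
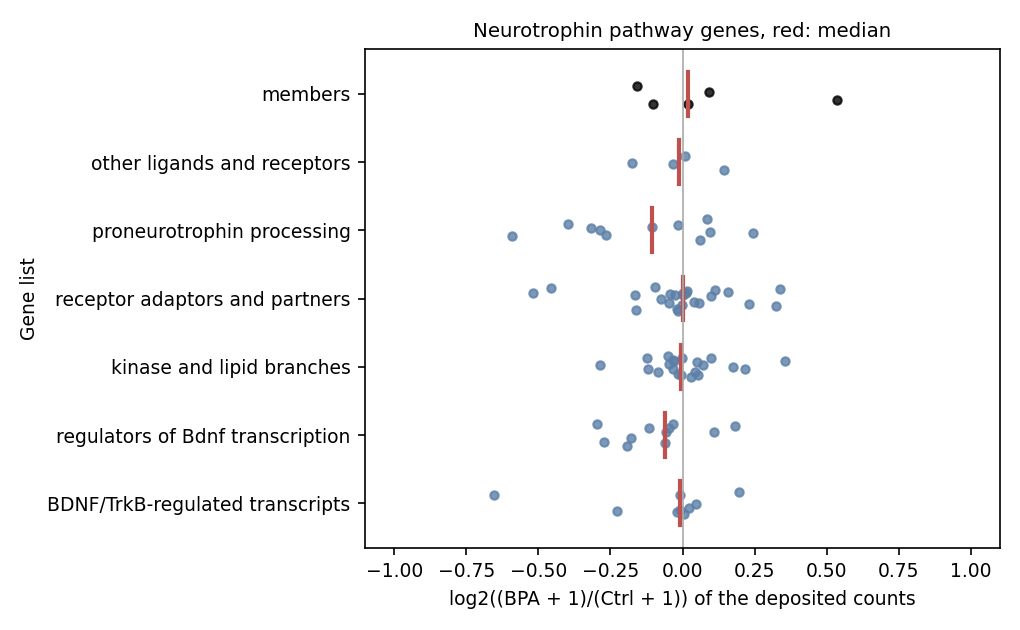
log2((BPA + 1)/(Ctrl + 1)) of input counts for the 5 genes (black) and the 80 pathway genes that passed the count minimum (blue), by role, with medians in red. Every gene lies inside 2-fold, and the medians run from -0.11 (processing) to 0.02 (the 5 genes).

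The second comparison asked whether m6A sites in these genes differed after exposure. Peaks were listed by the authors for each IP library over its input, with a score of -10 × log10 of a p-value and a fold enrichment; both are the authors' values, and the FDR given for every peak was 100%. The BPA list held no peak in the 5 genes, and the Ctrl list held 1, in Ntf3. It lay on chromosome 4 from 225638801 to 225639860 and was assigned to transcript NM_001270868. Its first base is the first base of the locus, and since Ntf3 is on the - strand the peak covers the last 1060 bases at the 3′ end of a locus of 68918 bases.

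The Ntf3 peak had a score of 26.3, by its header a p-value of 0.00236, and a fold enrichment of 6.02. Within the Ctrl list it was ordinary in strength and long: 44.3% of peaks had a lower score, 51.0% a lower fold enrichment, and 97.2% were shorter, the median length being 159 bases. No peak of the BPA list overlapped it. Of all 8192 Ctrl peaks 26.7% had no overlap, and of the 1228 with a score within 1.5-fold of this one 27.7% had none. The peak lists give no reads for a site that was not listed, so the level of IP signal at this position in the BPA_IP library was not measured here. It rests beside an input level of 52 reads in the BPA library and 36 reads in the Ctrl library.

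Bdnf, Ntrk2, Ntrk3 and Ngfr, 4 of 5 genes, had no peak in either list, and no peak of any gene name lay within 20 kb of their loci. Over the 13006 genes, 65.7% had no peak in either list, 24.3% had peaks in both, 5.2% in the BPA list only and 4.8% in the Ctrl list only. The share with a peak depended on level. Among genes of 20 to 50 FPKM, where Bdnf falls, 43.6% had a peak in either list, among those of 50 to 100 FPKM (Ntrk3) 41.3%, and from 100 FPKM on (Ntrk2) 27.8%. At 2 to 5 FPKM, the range of Ntf3, it was 22.7%, of which 72 genes had a peak in the BPA list only and 85 in the Ctrl list only, out of 1675. At 1 to 2 FPKM (Ngfr) it was 8.84%. Having no listed peak was therefore the common outcome at each member's level.

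**Figure D5:**
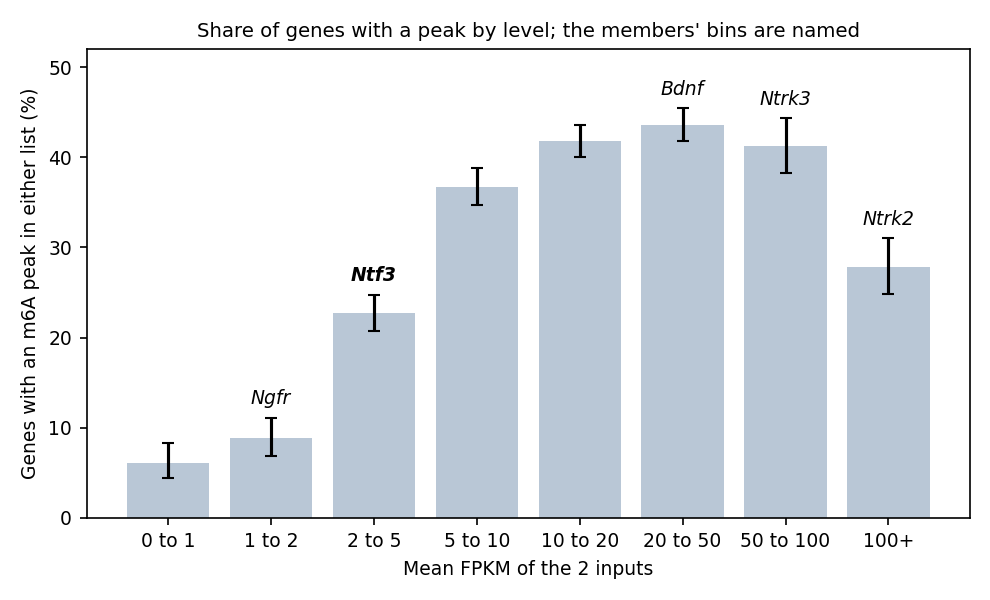
Percent of genes with an m6A peak in either list, by mean FPKM of the inputs, for the 13006 genes that passed the count minimum; bars are 95% exact binomial intervals. The bins of the 5 genes are named; Ntf3, in bold, is the member with a listed peak, in a bin where 22.7% of genes had one.

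Peaks of the other pathway genes were counted in the same way. Of the 80 pathway genes, 25 had peaks in both lists, 4 in the BPA list only, 5 in the Ctrl list only and 46 in neither. A peak in either list was found for 42.5%, against 34.3% of the 13006 genes. The 34.3% pools genes of all levels, from 6.13% below 1 FPKM to 43.6% at 20 to 50 FPKM. The pathway list was not compared with genes of like level, so no excess of peaks is read from it. Named after their values were seen, Gab1, Usf2 and Bhlhe40 were among those with peaks in the BPA list only, and Pcsk6, Gab2, Mapk3, Rps6ka1 and Camk4 in the Ctrl list only. The highest scores were very low for Gab1 (4.45), Pcsk6 (4.27), Mapk3 (3.6) and Rps6ka1 (3.19). They were 63.4 for Usf2, 35.6 for Gab2 and 20.2 for Bhlhe40. The 4 measured sorting receptors had none. Of the 11 regulators of Bdnf transcription, 7 had peaks in both lists and 2, Usf2 and Bhlhe40, in the BPA list only. Over the 13006 genes these shares were 24.3% and 5.2%. The regulators had the highest share with a peak in either list among the roles (81.8%), and were not compared with genes of like level. For Creb1 the highest fold enrichment was 6.81 in the BPA list (2 peaks) and 5.95 in the Ctrl list (1 peak). Its highest score went the other way, 22.5 in the BPA list and 28.3 in the Ctrl list. For Rest the fold enrichment was 11.0 in the BPA list and 7.52 in the Ctrl list. Camk4 had 2 weak peaks in the Ctrl list, with a highest score of 9.03, and none in the BPA list. The highest fold enrichment of the pathway, picked out after the values were seen, was that of Map2k1, with 38.0 in the BPA list and 45.5 in the Ctrl list. Ranks of fold enrichments from separate lists show no change in methylation, and no such change is read from these pairs.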

How the data were processed

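Rat hippocampal cultures gave 4 libraries, 1 each for BPA_Input, BPA_IP, Ctrl_Input and Ctrl_IP, grouped by sample title. Per the labels' protocols, the m6A kit's IP and a directional library kit were used. Per the submitters' processing notes, STAR, HISAT2 2.0.4 and cutadapt 1.9.3 were used, with no roles stated. A quantifier, a peak caller version and a genome build were not given in the sources used here. Each gene has, per the file headers, a deposited FPKM and a deposited estimated count. The deposited counts are reads times 1 factor per library (1.02 for BPA, 1.01 for Ctrl): divided by it, 95.8% of 8555 genes under 300 counts came within 0.01 of a whole read in both libraries, and the 5 genes within 0.0203. The deposited peak lists give, per the file headers, a score, a fold enrichment ratio, an FDR in percent and a length; starts count from 0 there and are printed 1 higher. Locus positions are as deposited.

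Ratios are log2((BPA + 1)/(Ctrl + 1)) of these counts with no further scaling, and shares over all genes use those averaging at least 10 counts. Folds are ratios of recovered reads times the library factors, with exact (Clopper-Pearson) 95% binomial intervals; changes in the ratio of 2 genes have exact conditional intervals of the odds ratio, and FPKM intervals are exact Poisson. All cover counting error only, because each group was 1 library. Reads carried no molecular tags, so copies of a molecule could not be told apart and the intervals may be too narrow. Genes of like depth have a mean count within 1.5-fold. With 1 library per group no p-value between groups was computed. Peaks were matched by gene name, and shared peaks overlap by at least 1 bp. A gene counted as having a peak where its symbol or gene number was in a list.

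The 5 genes, the pathway list and the markers were chosen with earlier results of these data known. Named pathway genes were other ligands and receptors and, in each other role, up to 3 genes with the largest log2 ratio in size among those with a mean of at least 50 counts; genes past 2-fold would have been added. Some genes that this rule takes are not reported here. Unmatched symbols were Pcsk1, Bex3, Vgf, Cort and Acta2. Likeness of pattern between genes was not computed, since 2 inputs give 1 difference per gene. The ratio rule and the intervals were tested on simulated counts with Poisson error alone. That simulation held no spread between cultures, so it says nothing about how well the rule or the intervals cover such spread. Python 3.11.15, scipy 1.17.1, pandas 2.3.3 and edgeR 4.0.16 (TMM, as an alternative) were used. RefSeq promoter sequences (GRCr8) were used for sequence only.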

Additional observations from a re-analysis of the deposited data

How the results depend on the processing

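The log2 ratios of the 5 genes stayed within their counting intervals under 30 of 30 alternatives (pseudocounts of 0.1 and 5, edgeR TMM, equal library totals, FPKM with a pseudocount of 1, and unscaled reads, the last chosen after seeing the data): from -0.12 to -0.09 for Bdnf, 0.42 to 0.55 for Ntf3, -0.18 to -0.15 for Ntrk2, 0.07 to 0.10 for Ntrk3 and 0 to 0.03 for Ngfr. Scaling to equal totals changed the split of the pathway list to 38 higher and 42 lower, and TMM to 31 higher and 49 lower. With no filter on low counts 2 pathway genes passed 2-fold, among them Npy (0 counts in the BPA library and 1.01 in the Ctrl library); the filter of 10 counts leaves them out. The genes of the deposited neurotrophin signaling annotation, chosen after seeing the data, gave 52 higher and 58 lower of 110, with 1 past 2-fold, LOC100912585 (19.4 counts in the BPA library and 5.05 in the Ctrl library). The number of genes past 2-fold over all genes was 263, and it was 170 with a pseudocount of 5, 104 on the FPKM scale, 1946 without a filter and 52 with a mean of at least 50 counts. With a score of at least 100 the Ctrl list held 0 peaks in the 5 genes, since the Ntf3 peak scored 26.3; with at least 20 it held 1. The other overlap and score rules were all stricter than the main one, so they could not add an overlap for that peak. No paired analysis was possible because each group held 1 library, and no replicate could be left out. Depth limits Ntf3 and Ngfr most, with 36 to 52 reads each.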
